A study of Mus musculus with 16 samples.

Results

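Fibroblast growth factor (Fgf) ligands were followed in the developing first molars of mouse embryos. The 10 genes are Fgf1, Fgf3, Fgf4, Fgf7, Fgf9, Fgf10, Fgf15, Fgf16, Fgf18 and Fgf20, chosen by name from 23337 genes counted in each of 16 poly(A) RNA-seq libraries. All 10 passed the filter on low counts, with 16287 genes in all. Of the libraries, 8 were labelled as the upper and 8 as the lower first molar, 1 of each per labelled stage, and the stages run from ED14.5 (embryonic day) to ED18.0 in steps of 0.5 days. Every embryo was labelled as a wild-type male of CD1, an outbred strain. A library held both first molars of 1 jaw of 1 embryo, and embryos (individuals) 1 to 8 run in the order of labelled stage, so that individual and stage are a single factor. With 1 library per tooth label and stage, p-values rest on the scatter of embryos around a smooth stage curve.

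Fgf ligands are secreted or locally held proteins that bind receptor tyrosine kinases of the Fgfr family together with heparan sulfate, and they switch on the MAP kinase pathway and its feedback genes of the Sprouty, Spred, Dusp and Etv families. In the molar germ, the enamel knot, a signaling center in the epithelium, releases Fgf4, Fgf9 and Fgf20 and marks where cusps form. Fgf3 and Fgf10 are known from the dental mesenchyme underneath, where they act back on the epithelium through the IIIb form of Fgfr2. Whole germs were sequenced, so fewer cells of a type and less RNA per cell cannot be told apart.

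Some libraries went against their labels, and this bears on every comparison below. Pou3f3, a gene of the upper jaw, measured 109 to 132 CPM (counts per 1000000 gene counts of the library) in the even-numbered individuals 2, 4, 6 and 8 labelled upper and 6.45 to 10.1 CPM in the odd-numbered individuals 1, 3, 5 and 7. It alternated in the same way among the libraries labelled lower, at 60.1 to 86.2 CPM in the even-numbered individuals and 4.45 to 5.46 CPM in the odd-numbered individuals. Dlx6, a gene of the lower jaw, ran opposite, with 3.11 to 4.197 CPM in the even-numbered individuals and 7.28 to 14.3 CPM in the odd-numbered individuals labelled upper, and 6.22 to 12.9 CPM in the even-numbered individuals and 12.97 to 21.3 CPM in the odd-numbered individuals labelled lower. Dlx5 moved opposite to Pou3f3 as well, 7 times of 7 from stage to stage under either label, with groups that overlapped. Xist, transcribed from the inactive X chromosome of females, reached 1499 to 1831 CPM in labelled upper and 432 to 1928 CPM in labelled lower, where individuals 1 and 2 were lowest, and although every library was labelled male, 0 reads were counted for the Y-linked genes Kdm5d, Uty and Eif2s3y, and 2 reads of Ddx3y in labelled lower individual 2 alone. Whether labels of tooth, stage or sex were exchanged between libraries was not tested, and every tooth difference and slope below holds for the libraries as labelled. Gene counts totalled 33146758 to 38584429 in labelled upper and 35918529 to 44565205 in labelled lower. The file names give 1 flow cell for each tooth label, so tooth label and flow cell cannot be told apart, and each flow cell has 1 lane for the first 4 stages and another for the last 4.

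The 250 bases before the RefSeq start of a gene are shown for the 2 ligands with the largest tooth label difference in each direction, Fgf18 and Fgf7 (higher in labelled upper) and Fgf9 and Fgf3 (lower in labelled upper). They come from RefSeq on GRCm38.p6, the assembly of mm10, and read 5′ to 3′ on the strand of the gene. GENCODE M21, the annotation used below for gene spans, starts Fgf9 at 58070547 and Fgf3 at 144838083. The windows of these 2 genes therefore lie within their GENCODE spans and not upstream of every annotated transcript. Capitals mark a match to any of 6 short motifs searched on both strands: TATAAA for the box that TBP reads, CCAAT for the box of that name, GGGCGG for the GC box read by Sp1, CTTTGA for Tcf and Lef factors, CCGGAA for ETS factors and TAATTA for homeodomain factors.
Fgf18, chr11:33147401-33147650, minus strand: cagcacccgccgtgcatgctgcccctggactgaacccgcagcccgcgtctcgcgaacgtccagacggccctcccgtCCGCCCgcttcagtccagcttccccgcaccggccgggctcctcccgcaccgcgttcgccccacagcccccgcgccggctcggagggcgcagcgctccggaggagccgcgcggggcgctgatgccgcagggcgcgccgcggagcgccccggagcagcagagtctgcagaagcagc
Fgf7, chr2:126034408-126034657, plus strand: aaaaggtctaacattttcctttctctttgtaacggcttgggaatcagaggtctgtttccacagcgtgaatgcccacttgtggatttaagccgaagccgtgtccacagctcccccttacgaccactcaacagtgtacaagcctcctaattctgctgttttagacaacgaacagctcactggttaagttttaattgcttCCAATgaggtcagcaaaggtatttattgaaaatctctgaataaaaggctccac
Fgf9, chr14:58072436-58072685, plus strand: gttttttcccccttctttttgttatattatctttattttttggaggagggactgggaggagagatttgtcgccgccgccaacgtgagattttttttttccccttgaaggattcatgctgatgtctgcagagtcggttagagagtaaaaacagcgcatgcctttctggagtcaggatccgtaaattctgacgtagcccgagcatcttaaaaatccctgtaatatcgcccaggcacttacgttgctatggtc
Fgf3, chr7:144838362-144838611, plus strand: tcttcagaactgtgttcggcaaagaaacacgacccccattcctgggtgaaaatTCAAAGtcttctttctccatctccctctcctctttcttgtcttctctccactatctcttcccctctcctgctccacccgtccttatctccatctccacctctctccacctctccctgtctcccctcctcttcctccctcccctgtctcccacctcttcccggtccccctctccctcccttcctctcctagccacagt
These 4 windows share no motif. Fgf18 holds a GC box on the opposite strand, Fgf7 a CCAAT box and Fgf3 a Tcf/Lef match on the opposite strand, while Fgf9 holds none of the 6. Of all 32851 windows of this length in the table, 32.7% hold a GC box, 33.8% a CCAAT box and 13.8% a Tcf/Lef match. The table holds 6 of the 10 ligands. Their GC content was 77.2% for Fgf18, 43.6% for Fgf7, 44.8% for Fgf9 and 55.2% for Fgf3, against a median of 52.4% over all windows. A match is a run of letters and says nothing of whether a factor binds there.

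Per length of exon, Fgf10 and Fgf3 were the most abundant ligands of both tooth labels. Levels were divided by the merged exon length of the GENCODE M21 gene, which may not be the annotation the authors counted on, and the SD spans the 8 stages. In labelled upper Fgf10 averaged 6.43 ± 1.27 CPM per kilobase (SD, n = 8) and Fgf3 6.09 ± 1.56, and the gap between them was smaller than their summed SDs. Next came Fgf18 (2.33 ± 0.828), Fgf20 (2.31 ± 1.15), Fgf9 (1.99 ± 0.696), Fgf7 (1.53 ± 0.596), Fgf4 (1.48 ± 0.682), Fgf15 (0.716 ± 0.439), Fgf1 (0.579 ± 0.156) and Fgf16 (0.321 ± 0.145), and of all neighbours in this order only Fgf3 and Fgf18 lay further apart than their summed SDs. In labelled lower the order was Fgf3 (15.4 ± 4.78), Fgf10 (8.49 ± 1.56), Fgf9 (5.05 ± 0.714), Fgf4 (2.48 ± 0.849), Fgf1 (1.39 ± 0.554), Fgf20 (1.31 ± 0.349), Fgf15 (0.892 ± 0.231), Fgf7 (0.751 ± 0.233), Fgf18 (0.658 ± 0.283) and Fgf16 (0.188 ± 0.0406). There the first 4 stood apart from each other by more than their summed SDs, as Fgf18 did from Fgf16, and the other neighbours did not. Fgf18 ranked 3 in labelled upper but 9 in labelled lower, and Fgf9 ranked 5 in labelled upper but 3 in labelled lower. With the longest transcript in place of merged exons, ranks 3, 4 and 5 in labelled upper went to Fgf20, Fgf9 and Fgf18, and ranks 6 and 7 in labelled lower to Fgf15 and Fgf20. Over all 16 libraries the highest level of Fgf18 was 12.8 times its lowest, the widest span of the 10, and that of Fgf10 2.30 times, the narrowest.

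**Figure D1:**
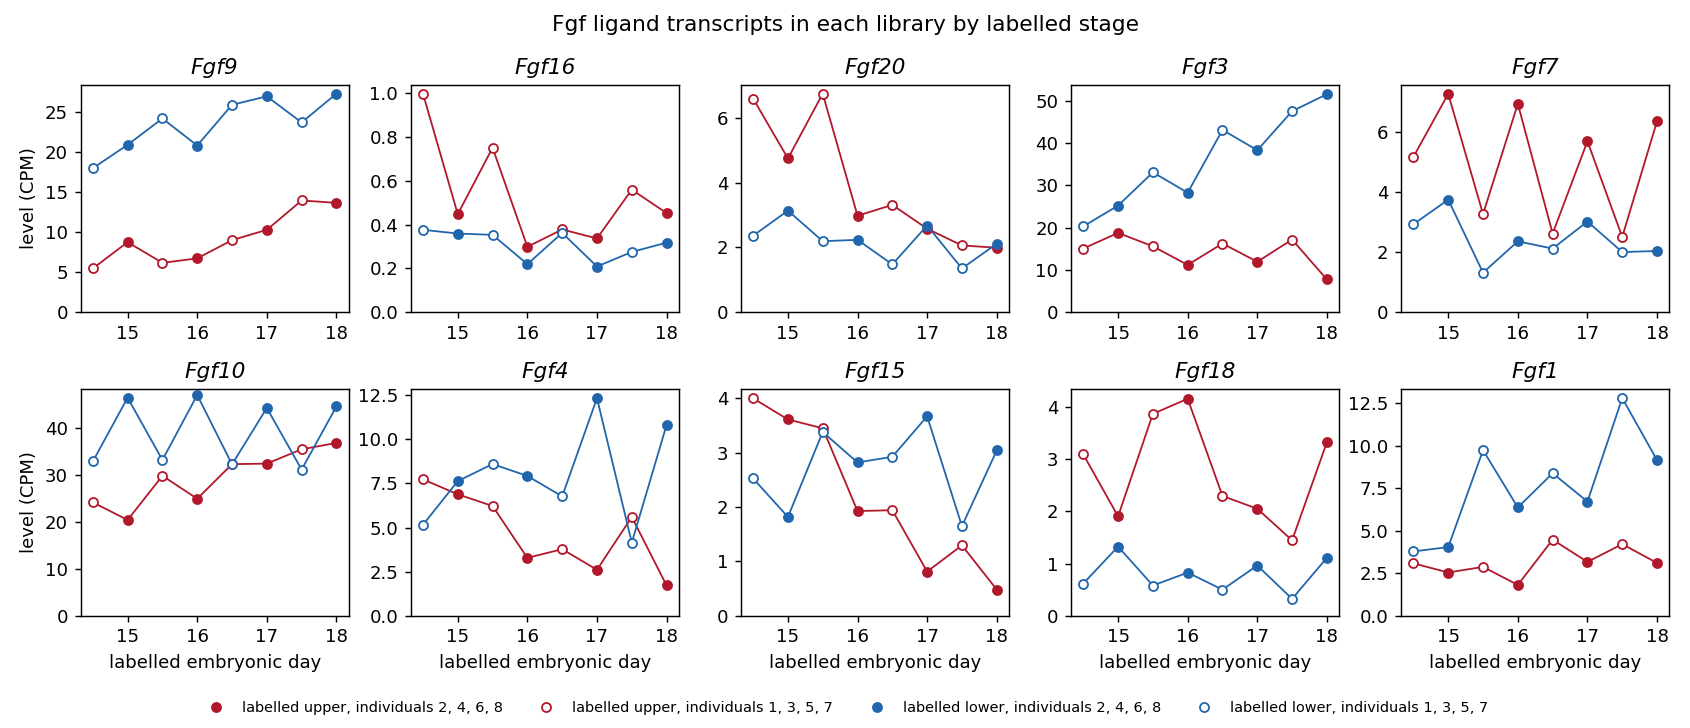
Level of each ligand in CPM (y axes start at 0 and differ between panels) against labelled embryonic day, in the libraries labelled upper (red) and labelled lower (blue), 1 point per library, filled for individuals 2, 4, 6 and 8 and open for 1, 3, 5 and 7. Fgf3 and Fgf9 lie lower and Fgf18 higher in every labelled upper library than in any labelled lower one, and Fgf7 steps up and down between neighbouring stages.

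The comparison of the tooth labels asks which ligands differ between the molars labelled upper and lower, and as many ligands passed in one direction as in the other. Fgf18, Fgf7, Fgf16 and Fgf20 were higher in labelled upper, Fgf9, Fgf3, Fgf1 and Fgf10 were lower, and Fgf4 and Fgf15 did not pass the test. Of all genes 36.2% were called, 18.1% higher and 18.1% lower in labelled upper, so that calls were common at large. The median log2 difference was -0.46 over the 10 ligands and 0.01 over all 16287 genes. The test was edgeR's quasi-likelihood F test on counts over all 16 libraries with a spline of stage, with p adjusted over all genes. With the labelled individual as a block in place of the spline the 8 calls were the same, 4 higher and 4 lower. Without the labelled lower libraries of individuals 1 and 2, 7 ligands passed, 2 higher and 5 lower.

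In the Fgf9, Fgf16 and Fgf20 subfamily, Fgf9 ran opposite to its relatives. Fgf9 (chromosome 14, 58070547 to 58112720), which signals to the mesenchyme through the IIIc forms of the receptors, measured 5.44 to 13.9 CPM in labelled upper with a median of 8.86, against 17.97 to 27.3 CPM with a median of 23.9 in labelled lower. The highest labelled upper library, individual 7, was below the lowest labelled lower one, individual 1. The log2 difference was -1.39 ± 0.12 (SE; adjusted p = 1.46e-06, edgeR). Fgf20 (chromosome 8, 40279166 to 40308331), a signal of the early enamel knot that acts downstream of ectodysplasin, ranged between 1.99 and 6.76 CPM with a median of 3.15 in labelled upper, and between 1.35 and 3.14 CPM with a median of 2.21 in labelled lower. Its labels overlapped, since only individuals 1, 2, 3 and 5 labelled upper exceeded every labelled lower library. The difference was 0.73 ± 0.20 (adjusted p = 0.0121), and it did not pass without labelled lower individuals 1 and 2 (adjusted p = 0.0732, edgeR). Fgf16 (chromosome X, 105764279 to 105774939), the scarcest ligand, had a median of 0.450 CPM in labelled upper (11 to 34 counts per library) and of 0.335 CPM in labelled lower (8 to 16 counts). Its smallest count, 8 in labelled lower individual 6, has an exact 95% Poisson interval of 3.45 to 15.8, which covers counting error only. The difference was 0.74 ± 0.22 (adjusted p = 0.0164), lost without individual 1 (adjusted p = 0.0665, edgeR) and without labelled lower individuals 1 and 2 (adjusted p = 0.102).

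Among the ligands of the IIIb receptor forms, Fgf3 and Fgf10 were lower and Fgf7 was higher in labelled upper. Fgf3 (chromosome 7, 144838083 to 144844436), a mesenchymal ligand in the later germ, measured 7.69 to 18.7 CPM with a median of 15.3 in labelled upper, against 20.3 to 51.6 CPM with a median of 35.7 in labelled lower, with no overlap. The log2 difference was -1.29 ± 0.21 (adjusted p = 0.000347, edgeR). Fgf10 (chromosome 13, 118669791 to 118792115), which keeps epithelial stem cells of the continuously growing incisor alive, differed least, with 20.5 to 36.9 CPM and a median of 31.1 in labelled upper, and 31.2 to 47.1 CPM and a median of 38.8 in labelled lower. The labels overlapped. The difference was -0.41 ± 0.12 (adjusted p = 0.016), and it was lost without individual 4 (adjusted p = 0.0589, edgeR) and without labelled lower individuals 1 and 2 (adjusted p = 0.0762). Fgf7 (chromosome 2, 126034658 to 126091185), the keratinocyte growth factor, made by mesenchyme, measured 2.504 to 7.28 CPM in labelled upper with a median of 5.43, against 1.31 to 3.75 CPM with a median of 2.24 in labelled lower. The labels overlapped through individuals 3, 5 and 7 labelled upper, and the difference was 1.04 ± 0.26 (adjusted p = 0.00682).

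Fgf18 had the largest difference of the 10 ligands. Fgf18 (chromosome 11, 33117430 to 33147400), a regulator of cartilage and bone growth from the Fgf8 subfamily, measured 1.44 to 4.15 CPM in labelled upper with a median of 2.69, against 0.325 to 1.32 CPM with a median of 0.722 in labelled lower, on 49 to 153 counts and 13 to 59 counts per library. No library of labelled upper was as low as any of labelled lower, and the log2 difference was 1.81 ± 0.27 (adjusted p = 0.000148, edgeR), a fold of 3.51. The labels did not overlap at 3 of the 10 ligands, 1 of them above and 2 below in labelled upper, against 2.89% and 3.52% of all genes.

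Fgf4, Fgf15 and Fgf1 complete the set. Fgf4 (chromosome 7, 144847367 to 144865243), the classic enamel knot signal, had 1.72 to 7.73 CPM with a median of 4.69 in labelled upper, and 4.15 to 12.3 CPM with a median of 7.78 in labelled lower. Its value of -0.80 ± 0.30 just missed the threshold (adjusted p = 0.0519, edgeR). It passed with DESeq2 (adjusted p = 0.0159), without individual 1 or without individual 7 (adjusted p = 0.0246 and 0.0362, edgeR), and without labelled lower individuals 1 and 2 (adjusted p = 0.0125). Fgf15 (chromosome 7, 144896531 to 144900953), the mouse counterpart of human FGF19 and best known as a gut hormone, had medians of 1.93 CPM in labelled upper and 2.87 CPM among the libraries labelled lower, a value of -0.51 ± 0.32 (adjusted p = 0.24), and it passed without labelled lower individuals 1 and 2 (-0.97 ± 0.29, adjusted p = 0.0258, edgeR). Fgf1 (chromosome 18, 38838673 to 38929472), the acidic Fgf without a signal peptide, measured 1.82 to 4.48 CPM with a median of 3.10 in labelled upper, and 3.79 to 12.8 CPM with a median of 7.55 in labelled lower. The difference was -1.22 ± 0.21 (adjusted p = 0.000585). Fgf1 lies inside the span of Arhgap26, a gene of the opposite strand with which it shares 0 exon bases in GENCODE M21, and the library kit does not mark strand. Arhgap26 averaged 10.6 ± 1.95 CPM in labelled upper, against 25.1 ± 7.64 CPM in labelled lower (SD, n = 8 each), a log2 difference of -1.23 ± 0.15 (adjusted p = 2.98e-05, edgeR), and unspliced Arhgap26 reads that fall on Fgf1 cannot be told apart from Fgf1 reads. Antisense genes also share exon bases with Fgf15 (761 and 26 of 3058) and Fgf10 (123 of 4601), and Micu3 shares 202 of 1678 with Fgf20. None of these overlapping genes was among the counted genes under its GENCODE M21 symbol. Their reads on the shared bases cannot be told apart from reads of Fgf15, Fgf10 and Fgf20. Fgf7 lies inside the span of Fam227b, a gene of the opposite strand with which it shares 0 exon bases. Fam227b was not among the counted genes, and its unspliced reads that fall on Fgf7 cannot be told apart from Fgf7 reads.

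**Figure D2:**
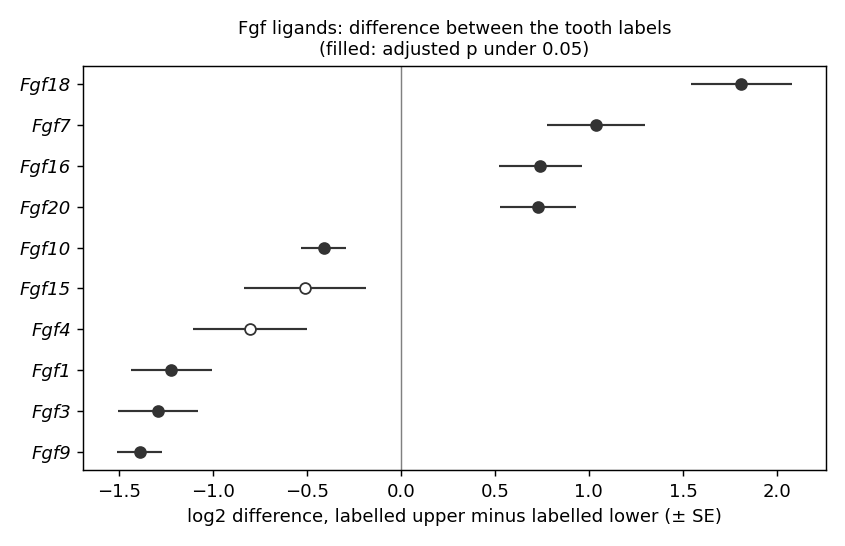
Log2 difference of each ligand between labelled upper and labelled lower (points, with SE bars; 16 libraries), filled where the adjusted p is under 0.05. Values run from 1.81 for Fgf18 at the top to -1.39 for Fgf9 at the bottom, and Fgf4 and Fgf15 are open.

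With labelled stage, Fgf9 and Fgf10 rose and Fgf15 and Fgf20 fell in the libraries labelled upper, and Fgf3 rose in those labelled lower. Of all genes 6.13% changed in labelled upper (3.72% rose and 2.41% fell), and 4.11% in labelled lower (2.63% rose and 1.49% fell). These are linear slopes in log2 per labelled day over 8 libraries, tested with edgeR. The median slope of the 10 ligands was -0.14 for labelled upper, next to 0.039 for labelled lower, and medians over all genes were 0.00061 and 0.00087. Adding the lane of the file names as a term left 0 of 10 ligands called in either label, with adjusted p of at least 0.34 for labelled upper and 0.235 for labelled lower, and with 2 and 19 of all genes past the threshold (edgeR). Lane and stage overlap closely here.

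Fgf15 had the steepest slope. Its levels in labelled upper from the first to the last stage were 3.998, 3.61, 3.45, 1.93, 1.94, 0.813, 1.30 and 0.483 CPM, a slope of -0.79 ± 0.12 per day (adjusted p = 0.00807, edgeR). In labelled lower they were 2.52, 1.82, 3.38, 2.82, 2.92, 3.67, 1.65 and 3.04 CPM, with no trend past the threshold (0.05 ± 0.12, adjusted p = 0.831). Only the last and the sixth stage of labelled upper lay below 1 CPM, on 16 and 29 counts. Fgf20 measured 6.61, 4.76, 6.76, 2.98, 3.32, 2.58, 2.06 and 1.99 CPM over the stages in labelled upper, a slope of -0.54 ± 0.09 (adjusted p = 0.0112), which was lost without individual 1 or without individual 8 (adjusted p = 0.0631 and 0.0537, edgeR). In labelled lower the Fgf20 slope was -0.15 ± 0.10 (adjusted p = 0.43).

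Fgf9 climbed in labelled upper through 5.44, 8.73, 6.14, 6.70, 8.98, 10.3, 13.9 and 13.6 CPM, a slope of 0.35 ± 0.07 (adjusted p = 0.0218), lost without individual 1 (adjusted p = 0.119) or individual 8 (adjusted p = 0.0931, edgeR). In labelled lower its slope of 0.14 ± 0.04 did not pass (adjusted p = 0.0626), but it did with DESeq2 (adjusted p = 0.00939) or with the odd and even individuals as a term (adjusted p = 0.042). Fgf10 measured 24.2, 20.5, 29.9, 24.98, 32.4, 32.5, 35.5 and 36.9 CPM over the stages in labelled upper, a slope of 0.21 ± 0.04 (adjusted p = 0.0259, edgeR), and this call was lost without individual 1, 2, 6 or 8 (adjusted p = 0.081, 0.0579, 0.0504 and 0.0972). Of the 4 calls in labelled upper, only that of Fgf15 was kept with each individual left out in turn (adjusted p up to 0.0468, edgeR).

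Fgf3 was the ligand that rose in labelled lower, through 20.3, 25.2, 33.1, 28.2, 43.1, 38.3, 47.5 and 51.6 CPM from the first to the last stage. The slope was 0.37 ± 0.05 (adjusted p = 0.0073, edgeR), lost without individual 1 (adjusted p = 0.0616) and without individuals 1 and 2 (adjusted p = 0.14). In labelled upper Fgf3 gave 15.02, 18.7, 15.6, 11.1, 16.2, 11.9, 17.1 and 7.69 CPM, with no trend past the threshold (-0.17 ± 0.10, adjusted p = 0.322) and its lowest value at the last stage. Fgf1 had a slope of 0.37 ± 0.12 in labelled lower that did not pass (adjusted p = 0.108), but passed with DESeq2 (adjusted p = 0.0193), with the odd and even individuals as a term (adjusted p = 0.0146) and without individual 3 (adjusted p = 0.0367, edgeR). Fgf4 had a slope of -0.43 ± 0.13 in labelled upper (adjusted p = 0.0929), which passed with DESeq2, with the odd and even individuals as a term and without individual 7 (adjusted p = 0.0251, 0.0324 and 0.00468). Fgf7, Fgf16 and Fgf18 had slopes of -0.26 to -0.08 in labelled upper and -0.13 to -0.03 in labelled lower, none past the threshold.

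**Figure D3:**
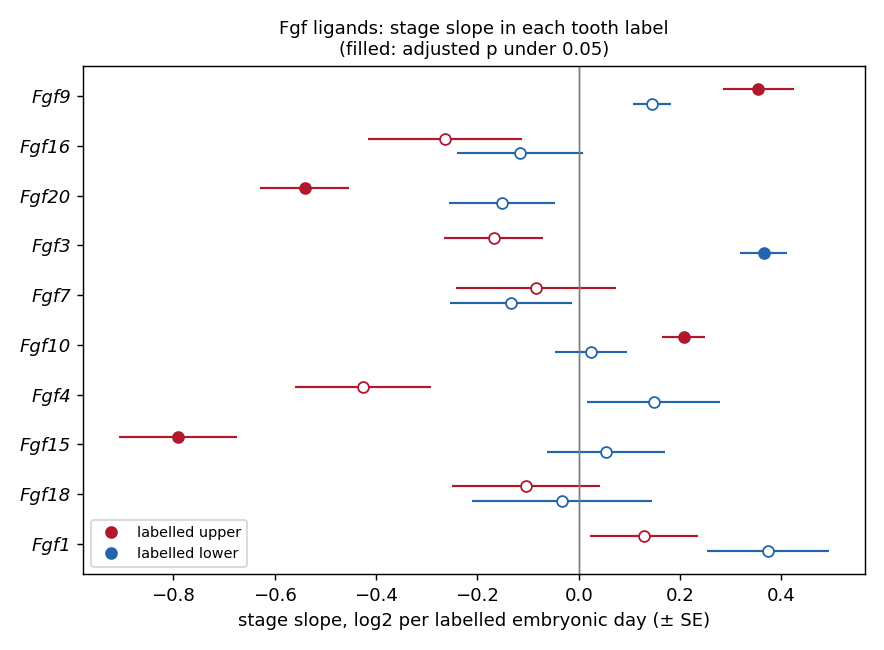
Slope of each ligand in log2 per labelled day (points, with SE bars) in the 8 libraries labelled upper (red) and the 8 labelled lower (blue), filled where the adjusted p is under 0.05. Fgf15 has the lowest slope, -0.79 in labelled upper, and Fgf3 the filled point of labelled lower at 0.37.

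Fgf3 and Fgf15 differed in slope between the tooth labels, while the other 8 ligands did not pass the test of that difference. The upper slope minus the lower slope was -0.85 ± 0.17 for Fgf15 (adjusted p = 0.0335) and -0.54 ± 0.12 for Fgf3 (adjusted p = 0.0436) in the interaction term of edgeR over 16 libraries. Of all genes 1.28% were called, 0.602% in this direction and 0.682% in the other. Blocking on the individual kept both calls (adjusted p = 0.0422 for Fgf15 and 0.0106 for Fgf3). Both were lost without individual 1, 2, 3, 5, 6 or 8 and without labelled lower individuals 1 and 2, and that of Fgf15 also without individual 4, with adjusted p up to 0.232 for Fgf15 and 0.197 for Fgf3 over the single individuals. Fgf4 had a value of -0.57 ± 0.22 (adjusted p = 0.243), which passed without individual 7 (adjusted p = 0.0132, edgeR). These 3 ligands, which have the lowest slope differences of the 10, are neighbours in a stretch of 62871 bases on chromosome 7, a grouping seen after their values were known. The counted genes around them, Ano1 on one side and Bc1 and Ccnd1 on the other, did not pass, with values of -0.08 ± 0.13, 0.12 ± 0.24 and -0.05 ± 0.04 (adjusted p = 0.84, 0.888 and 0.613, edgeR).

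Fgf7 was higher and Fgf1 lower in the even-numbered individuals than in the odd-numbered individuals, the split in which Pou3f3 alternates. Of all genes 12.5% were called, 7.04% higher and 5.5% lower, in this comparison over 16 libraries (edgeR, with tooth label and a spline of stage). By their labels the 16 libraries hold 8 individuals, since both tooth labels of a stage are given the same embryo. This fit takes the libraries as independent, so its p-values are too small where the pair of an embryo deviates together. The pairing rests on the labels. Xist was lower in labelled lower individuals 1 and 2 (432 and 542 CPM) than in any labelled upper library (at least 1499 CPM). Fits within 1 label use each embryo once, and they take a linear term of stage in place of the spline. The split follows the stage labels but was proposed because these data alternate, so the test describes size against scatter. Fgf7 measured 7.28, 6.94, 5.69 and 6.37 CPM in labelled upper even-numbered individuals, against 5.17, 3.27, 2.62 and 2.504 CPM in the odd-numbered individuals. In labelled lower it measured 3.75, 2.36, 3.02 and 2.04 CPM in the even-numbered individuals and 2.93, 1.31, 2.12 and 1.999 CPM in the odd-numbered individuals. From each stage to the next it moved the same way as Pou3f3, 7 times of 7 whichever the label, and the groups were apart in labelled upper but overlapped in labelled lower. The log2 difference was 0.89 ± 0.15 (adjusted p = 0.00215), and it passed with any 1 individual left out (adjusted p up to 0.0372, edgeR) and without labelled lower individuals 1 and 2 (adjusted p = 0.00781). Within labelled upper it was 1.10 ± 0.17 (adjusted p = 0.00437) and within labelled lower 0.48 ± 0.24 (adjusted p = 0.344), where 8.26% and 6.48% of all genes were called.

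Fgf1 ran the other way. It measured 2.55, 1.82, 3.17 and 3.11 CPM in labelled upper even-numbered individuals and 3.09, 2.88, 4.48 and 4.21 CPM in the odd-numbered individuals, and 4.04, 6.37, 6.71 and 9.15 CPM in labelled lower even-numbered individuals and 3.79, 9.73, 8.38 and 12.8 CPM in the odd-numbered individuals. The groups overlapped in both labels, though from stage to stage it moved against Pou3f3 7 times of 7 in labelled upper, and 6 times of 7 in labelled lower. The log2 difference of -0.59 ± 0.16 (adjusted p = 0.0273, edgeR) was lost without any of individuals 3, 4, 5, 6, 7 and 8 (adjusted p = 0.0639 to 0.162), but passed without labelled lower individuals 1 and 2 (adjusted p = 0.0122). Within labelled upper it was -0.55 ± 0.18 (adjusted p = 0.0984) and within labelled lower -0.59 ± 0.19 (adjusted p = 0.113, edgeR), so that it passed in neither label with each embryo used once. Arhgap26 differed by -0.52 ± 0.07 (adjusted p = 0.000513).

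Fgf10 and Fgf18 alternated among the libraries labelled lower. There Fgf10 measured 46.5, 47.1, 44.3 and 44.7 CPM in the even-numbered individuals and 32.95, 33.3, 32.3 and 31.2 CPM in the odd-numbered individuals, a log2 difference of 0.50 ± 0.04 within that label (adjusted p = 0.000245, edgeR). In labelled upper its levels were 20.5, 24.98, 32.5 and 36.9 CPM in the even-numbered individuals and 24.2, 29.9, 32.4 and 35.5 CPM in the odd-numbered individuals, with a difference of -0.23 ± 0.07 that did not pass (adjusted p = 0.0819). Fgf18 measured 1.32, 0.826, 0.962 and 1.11 CPM in labelled lower even-numbered individuals and 0.618, 0.580, 0.501 and 0.325 CPM in the odd-numbered individuals, a difference of 1.15 ± 0.25 (adjusted p = 0.0255, edgeR). The labelled upper libraries had 1.90, 4.15, 2.05 and 3.32 CPM in the even-numbered individuals and 3.09, 3.86, 2.29 and 1.44 CPM in the odd-numbered individuals, and the difference was 0.20 ± 0.35 (adjusted p = 0.796). Fgf20 and Fgf4 had values of 0.58 ± 0.17 and 0.60 ± 0.24 within labelled lower and -0.31 ± 0.18 and -0.61 ± 0.24 within labelled upper, none past the threshold. From stage to stage Fgf10, Fgf18 and Fgf20 moved with Pou3f3 7 times of 7 in labelled lower, and 2, 4 and 1 times of 7 in labelled upper. Over all 16 libraries Fgf16 differed by -0.55 ± 0.19 (adjusted p = 0.0762, edgeR). It moved against Pou3f3 7 times of 7 in labelled upper and 5 times of 7 in labelled lower. Groups that do not overlap with the even-numbered individuals above were found for 1 of 10 ligands within labelled upper and for 2 of 10 within labelled lower, against 6.24% and 5.02% of all genes, and with the even-numbered individuals below for 0 of 10 in each, against 3.31% and 2.49%. In both labels at once 0 of 10 were apart, against 1.8% of all genes with the even-numbered individuals above and 0.528% with them below.

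The alternating difference was not shown to vary with the tooth label for any ligand. In the interaction term of edgeR 0 of 10 ligands and 0 of 16287 genes (0%) passed, 5 ligands and 964 genes had an unadjusted p under 0.05, and DESeq2 called 109 genes and 0 ligands. The values nearest to the threshold, as the difference in labelled upper minus that in labelled lower, were -1.06 ± 0.30 for Fgf20 (adjusted p = 0.355), -0.59 ± 0.18 for Fgf10 (adjusted p = 0.42) and -1.44 ± 0.49 for Fgf4 (adjusted p = 0.57).

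**Figure D4:**
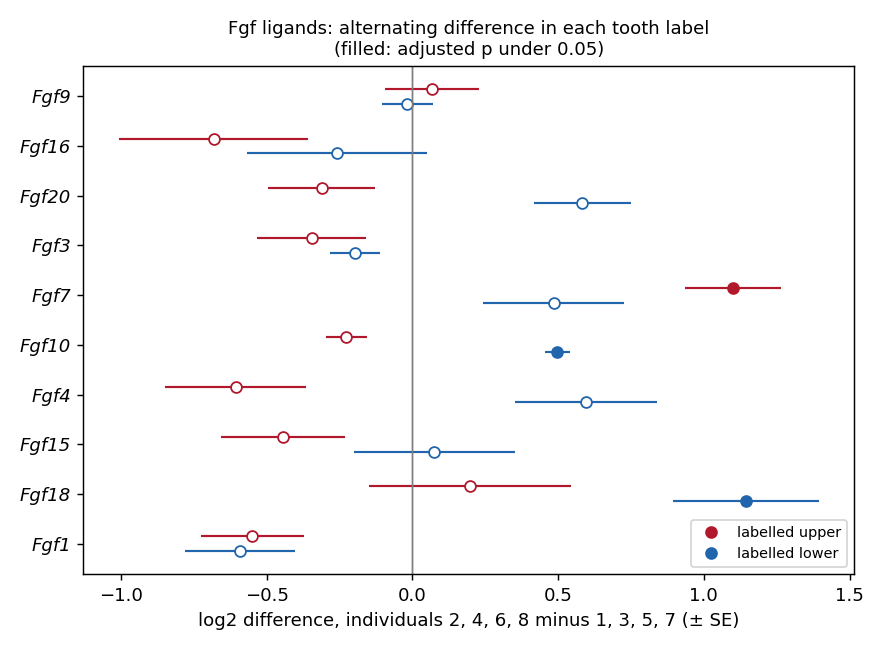
Log2 difference of each ligand between individuals 2, 4, 6 and 8 and individuals 1, 3, 5 and 7 (points, with SE bars) within the 8 libraries labelled upper (red) and the 8 labelled lower (blue), filled where the adjusted p is under 0.05. The filled points are Fgf7 in labelled upper (1.10) and Fgf10 (0.50) and Fgf18 (1.15) in labelled lower.

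Cell type markers moved with both splits, and their part in the ligand values was not tested. All 7 dental epithelium and all 7 dental mesenchyme genes listed had counts in every library. Over all genes 18.1% were called higher and 18.1% lower in labelled upper. Between the tooth labels, enamel knot genes were higher in labelled upper at 0 of 8 and lower at 6 of 8 (edgeR), with a summed level of 189 to 365 CPM in labelled upper against 438 to 1038 CPM in labelled lower. Shh and Msx2 gave the largest parts of these sums, with means of 87.4 and 48.0 CPM in labelled upper and 375 and 151 CPM in labelled lower. Shh, Wnt10a and Msx2 did not overlap between the labels, while Wnt10b, Bmp2, Cdkn1a, Dkk4 and Slit1 did. Dental mesenchyme genes were higher at 5 and lower at 0 of 7, with sums of 1662 to 2356 CPM in labelled upper against 1086 to 1674 CPM in labelled lower. Dental epithelium genes were higher at 1 and lower at 3 of 7, at 2689 to 4605 CPM in labelled upper against 3547 to 5018 CPM in labelled lower, and bone genes higher at 2 and lower at 0 of 5, at 377 to 765 CPM in labelled upper against 454 to 608 CPM in labelled lower. Of other tissues, oral cornifying epithelium genes were lower at 4 of 4, with sums of 15.3 to 215 CPM in labelled upper against 112 to 1229.8 CPM in labelled lower. Neuron genes were lower at 3 of 4, at 35.95 to 51.1 CPM in labelled upper against 60.8 to 91.1 CPM in labelled lower, and endothelium genes at 2 of 4, at 293 to 353 CPM in labelled upper against 313 to 360.3 CPM in labelled lower. Skeletal muscle genes were lower at 1 of 5, at 0.970 to 43.6 CPM in labelled upper against 2.28 to 16.99 CPM in labelled lower, with Ckm at 0 in 1 library. Schwann cell genes passed at 0 of 4, with 1 at an unadjusted p under 0.05 in edgeR, at 48.5 to 66.4 CPM in labelled upper against 51.3 to 64.4 CPM in labelled lower. Of all 16287 genes, 7403 had an unadjusted p under 0.05 between the tooth labels (edgeR). Erythroid genes were higher at 2 of 3 measured of 4, at 27.8 to 135 CPM in labelled upper against 12.00 to 26.7 CPM in labelled lower, with Hba-a1 at 0 in 12 libraries. Hbb-y measured 3.03 to 102 CPM in labelled upper against 0.106 to 0.910 CPM in labelled lower, without overlap. Hba-x measured 1.86 to 16.7 CPM against 0.200 to 0.898 CPM, also without overlap. Alas2 overlapped, at 15.8 to 26.2 CPM in labelled upper against 11.6 to 25.5 CPM in labelled lower. Whether the stages match between the tooth labels was not tested.

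Between the alternating groups, 6 of 7 dental epithelium genes and 4 of 8 enamel knot genes were lower, and 4 of 7 dental mesenchyme and 2 of 5 bone genes higher, in the even-numbered individuals. The shares over all genes were 5.5% lower and 7.04% higher. Epithelial sums in labelled upper were 2689 to 3554 CPM in the even-numbered individuals and 3472 to 4605 CPM in the odd-numbered individuals. Epithelial sums in labelled lower were 3547 to 4096 CPM in the even-numbered individuals and 4346 to 5018 CPM in the odd-numbered individuals. Mesenchymal sums in labelled upper were 1980.1 to 2356 CPM in the even-numbered individuals and 1662 to 2144 CPM in the odd-numbered individuals. Mesenchymal sums in labelled lower were 1333 to 1674 CPM in the even-numbered individuals and 1086 to 1429.8 CPM in the odd-numbered individuals. In this comparison 2 Schwann cell genes were higher and 1 lower, and 1 erythroid gene was higher. With stage, 1 of 8 enamel knot genes rose (Msx2, 0.39 ± 0.05 per day) and 1 fell (Bmp2, -0.35 ± 0.06) in labelled upper. In labelled lower 2 of 8 rose (Bmp2, 0.41 ± 0.06, and Cdkn1a, 0.22 ± 0.05) and 0 fell (edgeR). In labelled upper 5 of 5 skeletal muscle, 2 of 4 oral cornifying and 1 of 4 neuron genes also rose, and 2 of 3 erythroid and 1 of 7 dental mesenchyme genes fell. In labelled lower 1 of 4 neuron genes rose and 1 of 3 erythroid genes fell. Over all genes 3.72% rose and 2.41% fell in labelled upper, and 2.63% rose and 1.49% fell in labelled lower. Their part in the ligand slopes was not tested.

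Of 15 measured of 16 listed response and feedback genes 8 were lower and 1 was higher in labelled upper, where 18.1% of all genes were called in each direction, with a median log2 difference of -0.19 over the list and 0.01 over all genes. Spry4, an inhibitor that the pathway induces, measured 41.6 to 51.9 CPM in labelled upper and 62.7 to 94.4 CPM in labelled lower without overlap, a difference of -0.69 ± 0.06 (adjusted p = 3.19e-06, edgeR). Dusp5, a nuclear phosphatase of ERK, measured 1.26 to 2.08 CPM in labelled upper and 2.72 to 5.62 CPM in labelled lower, a difference of -1.18 ± 0.11 (adjusted p = 3.43e-06). Spred3 was the gene that ran the other way, at 0.29 ± 0.07. With stage in labelled upper, Il17rd, a feedback inhibitor at the membrane, rose by 0.19 ± 0.04 per day (adjusted p = 0.0256, edgeR). Etv5, a transcription factor induced by Fgf, had a slope of -0.15 ± 0.03 there (adjusted p = 0.0333, edgeR). Over all genes 3.72% rose and 2.41% fell in labelled upper. In labelled lower 0 of 15 passed, where 4.11% of all genes did. Of these 15, 3 had an unadjusted p under 0.05 (edgeR), as had 3610 of all 16287 genes. Between the alternating groups Spry2 passed, at -0.25 ± 0.06 (adjusted p = 0.0143, edgeR). The share over all genes was 5.5% in this direction.

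Of 13 measured of 14 listed receptors and cofactors, 2 were higher and 1 was lower in labelled upper. Over all genes 18.1% were called in each direction. The median log2 difference of the list was -0.04. Fgfr1, a receptor widely made in mesenchyme, measured 447 to 623 CPM in labelled upper and 622 to 822 CPM in labelled lower, a difference of -0.46 ± 0.04 (adjusted p = 2.89e-06, edgeR). Flrt3 (0.41 ± 0.07) and Flrt2 (0.30 ± 0.05), membrane proteins that bind Fgf receptors, were higher. With stage in labelled upper 3 rose, led by Fgfr4 (0.41 ± 0.08) and Fgfr2 (0.13 ± 0.03), and in labelled lower 1 fell, Flrt2 (-0.13 ± 0.03). The shares over all genes were 3.72% rising in labelled upper and 1.49% falling in labelled lower. Fgfr2, the receptor of Fgf3, Fgf7 and Fgf10 in its IIIb form, also differed in slope between the labels (0.18 ± 0.03, adjusted p = 0.0132, edgeR). Over all genes 0.682% were called in this direction. Between the alternating groups 3 were higher in the even-numbered individuals, led by Fgfr3, with 90.8 to 109.9 CPM in the even-numbered individuals and 52.4 to 67.7 CPM in the odd-numbered individuals of labelled upper (0.47 ± 0.09, adjusted p = 0.00366), and Flrt1 (0.25 ± 0.06). The share over all genes was 7.04% in this direction.

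Of the 12 other Fgf genes of the mouse 8 were measured, 5 were higher in labelled upper and 0 lower, with a median log2 difference of 0.62. Over all genes 18.1% were called in each direction. Fgf13 (0.72 ± 0.09) and Fgf14 (0.78 ± 0.16), intracellular proteins that bind sodium channels, led these, with Fgf13 at 16.3 to 28.2 CPM in labelled upper and 12.5 to 14.97 CPM in labelled lower. Fgf13 also fell with stage in labelled upper, at -0.19 ± 0.04 per day (adjusted p = 0.0267, edgeR), as 2.41% of all genes did. In the slopes of labelled lower and between the alternating groups 0 of 8 passed edgeR, against 4.11% and 12.5% of all genes. An unadjusted p under 0.05 was found at 1 in the labelled lower slope and 2 between the alternating groups (edgeR). Over all 16287 genes it was found at 3610 and 4465.

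The genes most like each ligand were found by the smallest root mean square difference of centred log2 CPM over the 16 libraries, given in parentheses, among 11760 genes. All points share the tooth labels, flow cells and the alternation, and likeness says nothing of a shared function. Nearest to Fgf9 were Rassf2 (0.20), Tbc1d30 (0.20) and Slc39a8 (0.21), and nearest to Fgf10 Thbs1 (0.14), Pthlh (0.14) and Dmd (0.16). Fgf7 was followed by Nfatc2 (0.23), Chrdl1 (0.26) and Hpgd (0.27). For Fgf3 they were Hs3st3b1 (0.29), Abcg8 (0.32) and Ggt1 (0.34), and for Fgf1 Arhgap26 (0.24), Hs3st3b1 (0.25) and Cdk18 (0.26), the first of which is the gene that spans it. Fgf20 was nearest to Hmga2 (0.33), Npr3 (0.33) and Rnf182 (0.33). Fgf4 had the least close neighbours, Krt79 (0.42), Megf11 (0.48) and Sox8 (0.49). Hs3st3b1, an enzyme that sulfates the heparan sulfate Fgf proteins bind, was near both Fgf1 and Fgf3. Fgf15, Fgf16 and Fgf18 had too few counts for this comparison.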

How the data were processed

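The labels' protocols name a TruSeq V2 kit and paired reads of 100 bp. For each of the 16 libraries the authors deposited whole-number counts per gene symbol, not normalized. Bowtie2 2.0.2, TopHat2 2.0.6, HTSeq 0.5.3p9 and mm10 are named in the submitters' processing notes, and neither annotation nor strand setting is given there (not given in the sources used here). Summary lines (5 per table) stayed out of library sizes and tests. Of all counted reads 11.8% to 14.1% fell on no annotated feature. None of the 120 pairs of libraries was identical.

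CPM used library gene totals. Genes were kept at 0.269 CPM (10 counts at the median depth) in at least 2 libraries. Tests used edgeR 4.0.16 under R 4.3.3 (TMM, quasi-likelihood F test, natural spline of stage with 3 degrees of freedom, Benjamini-Hochberg over 16287 genes, threshold 0.05). The SE is the log2 value divided by the square root of F. Alternatives were DESeq2 1.42.0, RLE factors, no filter on low counts, each individual left out, the individual as a block, lane or alternating group as terms, and each tooth label alone. Alternating differences within 1 tooth label were fitted with a linear stage term and no spline. The scripts were tested on simulated data. The labels give the upper and lower library of a stage the same embryo, and the block pairs them for that reason. Deviations from the label mean correlated at 0.121 to 0.278 in the 8 pairs. The best match was the library of the same individual number in only 4 of the 8 pairs.

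Members and lists were chosen with earlier results of these data known. Besides the 10 ligands, up to 2 genes per list, direction and comparison with the smallest p and a mean count of at least 50 are named, and the 3 most like genes of each ligand with a mean count of at least 100. Arhgap26, Ano1, Ccnd1 and Bc1 were chosen after their values were seen.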

Additional observations from a re-analysis of the deposited data

Results flagged for a closer look

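The slope of Fgf15 per labelled day differed between the tooth labels by -0.85 on the log2 scale (labelled upper minus labelled lower, adjusted p = 0.0335, edgeR), a difference found by the interaction term itself. The slope of Fgf3 differed by -0.54 (adjusted p = 0.0436, edgeR). With each individual left out in turn, Fgf15 kept its call in 1 of 8 runs and Fgf3 in 2 of 8. Both calls were lost without labelled lower individuals 1 and 2, and lane was not fitted as a term in this comparison. No single library stood apart from its group by Dixon's criterion in 60 groups of 4 or 8 libraries, where chance gives about 1 in 20. Every group spans several labelled stages, so stage trends widen its range, and groups this small flag only extreme values. The absence of flags therefore does not show that no library deviates.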

How the results depend on the processing

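Of 820 values of single ligands under alternative settings, 718 kept direction and side of the threshold, 44 lost a call, 16 gained one and 42 changed sign. In the tooth difference no ligand changed sign in any alternative run, and no total of called ligands or genes moved by over 1.5 times, but without labelled lower individuals 1 and 2 the ligands called higher were 2, against 4 in the main test. Counts that moved are given as called ligands and called genes, with the main counts 4 and 999 for the labelled upper slope, 1 and 670 for the labelled lower slope, 2 and 209 for the slope difference, 2 and 2042 for the alternating difference and 0 and 0 for its variation with tooth label. DESeq2 gave 2051 genes for the upper slope, 3 and 1799 for the lower slope, 595 genes for the slope difference and 109 for the variation. Lane as a term gave 0 and 2 for the upper slope and 0 and 19 for the lower one. The alternating group as a term gave 2152 genes for the upper slope and 3 and 1789 for the lower slope. The individual as replicate block gave 475 genes for the slope difference, and it changed no call of a ligand in the paired comparisons. Within labelled upper alone the alternating difference had 1 ligand and 1345 genes, and within labelled lower alone 1056 genes. Without labelled lower individuals 1 and 2, an alternative added after seeing the data, the lower slope had 0 and 1, the slope difference 0 and 4, and the variation 18 genes. The cause of these shifts was not tested.

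With each individual left out in turn, counts of ligands and genes ran over 1 to 5 and 192 to 1401 for the upper slope, 0 to 2 and 34 to 758 for the lower slope, 0 to 3 and 14 to 136 for the slope difference, 1 to 2 and 717 to 1799 for the alternating difference, and 0 to 28 genes for its variation. Ligands whose sign changed in these runs were not called in the main test. In log2 they were Fgf7 -0.27 to 0.0088 for the upper slope, Fgf10 -0.028 to 0.079, Fgf15 -0.019 to 0.15 and Fgf18 -0.26 to 0.14 for the lower slope, Fgf7 -0.15 to 0.12, Fgf16 -0.21 to 0.017 and Fgf18 -0.32 to 0.034 for the slope difference, Fgf4 -0.12 to 0.27, Fgf9 -0.11 to 0.091, Fgf15 -0.25 to 0.025 and Fgf20 -0.12 to 0.34 for the alternating difference, and Fgf1 -0.28 to 0.15 and Fgf3 -0.79 to 0.031 for the variation. Other sign changes were in ligands not called either. With lane as a term the upper slope was -0.32 for Fgf1, 0.29 for Fgf7 and 0.35 for Fgf18, and the lower slope 0.21 for Fgf18. The alternating group as a term gave -0.022 for the lower slope of Fgf10. Alternating differences changed sign within labelled upper for Fgf4 (-0.61), Fgf10 (-0.23) and Fgf20 (-0.31), and within labelled lower for Fgf9 (-0.018) and Fgf15 (0.075). Without labelled lower individuals 1 and 2 sign changes were seen in the lower slope of Fgf7 (0.16), Fgf15 (-0.12) and Fgf18 (0.18), the slope difference of Fgf1 (0.12), Fgf7 (-0.23) and Fgf16 (0.047), the alternating difference of Fgf9 (-0.011) and Fgf15 (0.0068), and its variation for Fgf1 (0.061). CPM with TMM factors moved no ligand's mean by over 1 SD. No replicate block could be fitted for the alternating difference, which is a contrast between individuals, or for slopes within 1 label. Fgf16, with 8 to 34 counts per library, is the ligand whose precision depth limits most.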
